A study of Mus musculus with 53 samples.

Results

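Collagen chain genes were taken as all genes whose symbol in the platform annotation consists of Col, a number, the letter a and a further number. The rule found 42 of the 18193 genes on the array, through 82 probe sets with exactly 1 symbol, and the probe set with the highest mean signal over all arrays stood for its gene (15 of the 42 have a single probe set). By textbook class, 11 encode fibrillar chains, 6 the type IV chains of basement membranes, 2 the multiplexins of the basement membrane zone, 9 fibril-associated chains, 5 type VI chains, 4 transmembrane collagens and 3 short-chain network collagens; Col7a1 of anchoring fibrils and Col26a1 stand alone. RNA of mouse embryonic stem (ES) cells and of 4 differentiated cell types was hybridised to 53 Affymetrix arrays in 15 groups, in a study that asked how loss of Ezh2 or Eed, both subunits of the Polycomb repressive complex that methylates histone H3, alters expression before and after differentiation. Wild-type ES cells were sampled undifferentiated, at day 0 (7 arrays: lines J1, CJ7 and E14tg1), and at day 2 (4; J1 and CJ7), day 6 (5; J1 and CJ7) and day 8 (2; CJ7) of culture without LIF, the cytokine that keeps ES cells undifferentiated. Ezh2-null cells were sampled on the same days (6, 4, 5 and 2 arrays), and Eed-null cells at day 0 (5), day 2 (2) and day 6 (2). The remaining groups were mesoendodermal cells marked by T-GFP (2), neuronal progenitors marked by Sox1-GFP (3), neuronal stem cells derived from such progenitors (2) and embryonic fibroblasts of the mouse, MEF (2). The titles name no treatment apart from LIF withdrawal. At day 0 wild-type replicates 1 and 2 are J1, 3 and 4 CJ7 and 5 to 7 E14tg1. At day 2 replicates 1 and 2 are J1 and 3 and 4 CJ7, and at day 6 replicates 1 to 3 are J1 and 4 and 5 CJ7. A choice among wild-type replicates is therefore in part a choice of line. The titles name no parent line for either mutant, so genotype and line cannot be told apart. The ES cells of all 3 genotypes had grown on feeder cells, which were depleted by letting them attach to plates before harvest.

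A collagen molecule is a triple helix of 3 chains. Fibrillar chains such as Col1a1, Col1a2 and Col3a1 build the load-bearing fibrils of connective tissue and are classical products of fibroblasts, whereas type IV chains form the sheet-like network of basement membranes, which early endoderm secretes in quantity. The multiplexin Col18a1 is a basement membrane component that carries the endostatin domain, and type VI chains form beaded filaments around cells. Each chain is hydroxylated and folded in the endoplasmic reticulum before it is secreted and crosslinked.

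The gene starts of the chains the results turn on are shown first. Col4a1 and Col4a2 lie head to head on chromosome 8, and their annotated starts (11312826 on the minus strand and 11312805 on the plus strand, RefSeq on GRCm38.p6) overlap by 22 bases. This stretch is printed because both genes share it, from the plus strand, with GGGCGG, the core letters of a GC box, in capitals:
Col4a1 and Col4a2, chr8:11312805-11312826: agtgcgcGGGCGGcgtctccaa
Col4a5 and Col4a6 are arranged in the same way on chromosome X, with starts 1343 bases apart. The 250 bases before the start are given for a pair of fibrillar chains, for the type VI chain Col6a1 and for Col18a1, because all 4 were called between MEF and undifferentiated cells. For Col18a1 the window is that of 1 of its 2 annotated starts. Capitals mark the letters GGGCGG of a GC box, the CCAAT box and the TATA box letters TATAAA on either strand, so that a GC box on the opposite strand appears as CCGCCC and a CCAAT box as its own complement.
Col1a2, chr6:4505368-4505617, plus strand: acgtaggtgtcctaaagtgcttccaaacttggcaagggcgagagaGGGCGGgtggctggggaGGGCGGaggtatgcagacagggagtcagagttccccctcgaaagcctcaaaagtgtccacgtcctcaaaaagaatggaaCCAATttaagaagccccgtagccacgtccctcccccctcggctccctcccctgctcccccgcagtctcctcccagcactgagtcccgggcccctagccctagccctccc
Col3a1, chr1:45311288-45311537, plus strand: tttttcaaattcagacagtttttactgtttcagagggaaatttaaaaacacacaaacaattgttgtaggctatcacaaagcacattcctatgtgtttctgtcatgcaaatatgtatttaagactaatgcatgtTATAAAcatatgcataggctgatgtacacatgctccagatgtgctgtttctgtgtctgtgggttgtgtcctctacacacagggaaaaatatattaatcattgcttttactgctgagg
Col6a1, chr10:76726045-76726294, minus strand: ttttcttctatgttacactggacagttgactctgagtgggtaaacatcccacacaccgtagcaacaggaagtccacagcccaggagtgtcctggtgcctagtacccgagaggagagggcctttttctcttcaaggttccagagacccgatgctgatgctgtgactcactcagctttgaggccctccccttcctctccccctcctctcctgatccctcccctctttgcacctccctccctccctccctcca
Col18a1, chr10:77166531-77166780, minus strand: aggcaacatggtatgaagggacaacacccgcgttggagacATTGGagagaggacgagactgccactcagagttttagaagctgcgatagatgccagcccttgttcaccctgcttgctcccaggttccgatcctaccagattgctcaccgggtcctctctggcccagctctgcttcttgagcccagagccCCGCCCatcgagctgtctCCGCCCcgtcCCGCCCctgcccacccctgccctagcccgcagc
The Col1a2 window holds GGGCGG 2 times and CCAAT 1 time, the Col3a1 window holds TATAAA, the Col18a1 window holds GGGCGG 3 times and CCAAT 1 time on the opposite strand, and the Col6a1 window holds none of the 3. Windows were at hand for 33 of the 42 genes (36 windows, as 3 genes have several starts). GGGCGG stood in 21 of these 36 windows, against 32.7% of all 32851 windows of the mouse genome, CCAAT in 13 (33.8% of all) and TATAAA in 5 (12.4% of all). CACCC, the core of binding sites of Krüppel-like factors, stood in 24 (52.0% of all). Of the 36 windows, 10 were CpG-rich (GC of at least 55% and an observed-to-expected CpG ratio of at least 0.65), against 25.3% of all. These matches are a description of letters, and no binding was measured.

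Signals are linear intensity values, called signal units below, and levels of different genes are not compared because probe sets differ in brightness. The median signal of an array lay between 50.5 and 63.0, and precision is limited by how many arrays there are. What was repeated to make the biological replicates of the labels is not said, so p-values measure the spread between these arrays, which may be technical. Differences are log2 fold changes ± SE on the log2(signal + 32) scale from 1 limma fit over all 53 arrays, which understates the change of dim genes, and calls required a change of at least 2-fold together with an adjusted p under 0.05 (Benjamini-Hochberg over the 13807 genes tested). As a check of labels, the Ezh2 probe set gave 1451 ± 247 signal units (SD, n = 7) in wild-type and 214 ± 31.6 (n = 6) in Ezh2-null cells at day 0. The Eed probe set was not lower in Eed-null cells (2956 ± 130 (n = 5) against 2536 ± 276) and does not check that label. In the way probe sets of the same gene differ, 14 arrays of days 2 and 6 stand apart as a second set: wild-type and Ezh2-null replicates 3 and 4 of day 2 and 3 to 5 of day 6, and every Eed-null array of those days. In wild type both first-set arrays of day 2 are J1 and both second-set arrays CJ7, so set and line cannot be told apart at that day. At day 6 the first-set arrays are J1 and the second set holds J1 and CJ7. Values within a set are given beside pooled ones where they end a call. Calls added within a set are given too, except for wild-type day 6 and for tests of whether the change from day 0 to day 6 differed between genotypes.

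Of the 42 genes, 30 passed the filter on dim signals and were tested: 9 of the 11 fibrillar genes, 5 of the 6 type IV genes, 1 multiplexin, 7 fibril-associated, 3 type VI and 2 transmembrane genes, and Col8a1, Col7a1 and Col26a1. The other 12 (Col4a3, Col6a4, Col6a5, Col8a2, Col9a2, Col9a3, Col10a1, Col11a2, Col15a1, Col17a1, Col24a1 and Col25a1) stayed between 1.0 and 69.2 signal units on every array. In at least 1 of 21 comparisons 21 genes were called. The 9 tested genes called in none were Col4a4, Col6a3, Col7a1, Col9a1, Col14a1, Col19a1, Col20a1, Col23a1 and Col27a1. A gene could pass the filter through 2 arrays of a single group, so these counts describe what was measurable and do not support a change.

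**Figure D1:**
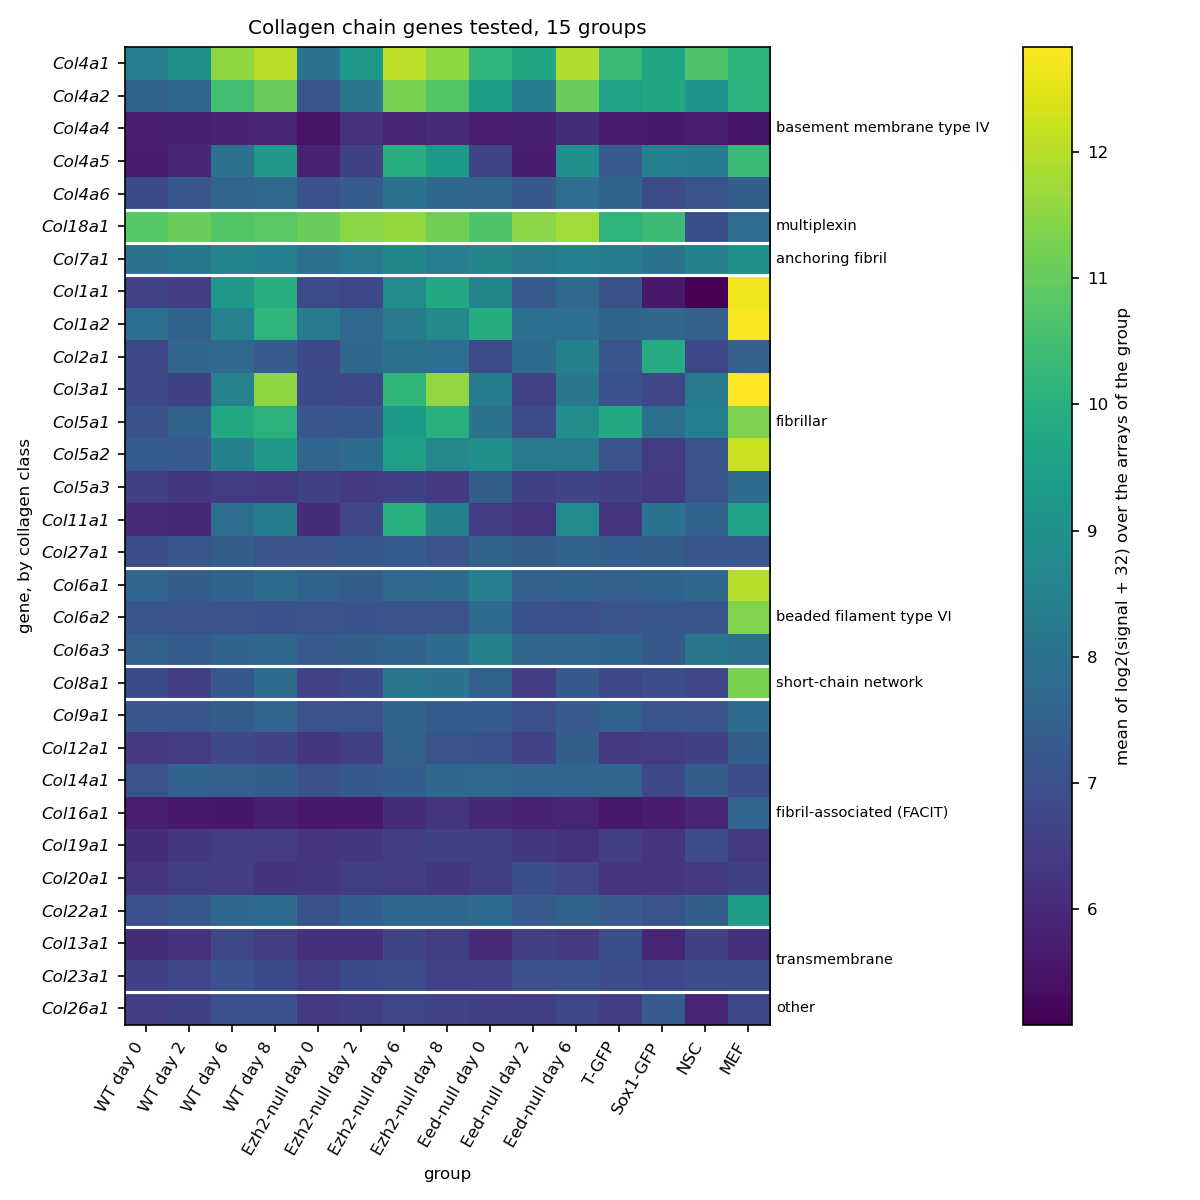
Mean of log2(signal + 32) over the arrays of each group (colour) for the 30 collagen chain genes tested (rows, by class) in the 15 groups (columns). Col4a1, Col4a2 and Col4a5 brighten from day 0 to days 6 and 8 in the ES cell groups, Col1a1, Col1a2, Col3a1, Col5a1, Col5a2, Col6a1, Col6a2 and Col8a1 are brightest in MEF, Col2a1 in Sox1-GFP and Col11a1 in Ezh2-null day 6 cells, and Col18a1 is bright everywhere except in neuronal stem cells and MEF.

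Type IV chains rose strongly as wild-type cells differentiated. Col4a1 gave 170.1, 354 and 455 signal units as the lowest, median and highest of the 7 undifferentiated arrays. At day 2 its 4 arrays gave 373, 452, 531 and 506, at day 6 the 5 arrays gave 2762, 3641, 2584, 3066 and 2850.4, and at day 8 the pair gave 4284 and 4036. Every array of days 6 and 8 lay above every array of days 0 and 2, and Col4a1 rose by 3.14 ± 0.20 at day 6 (adjusted p = 2.7e-17) and by 3.63 ± 0.27 at day 8 (adjusted p = 3.2e-14). Its partner chain Col4a2, with which it forms the common basement membrane heterotrimer, followed the same course. Col4a2 signal was 73.3, 169 and 219 at day 0 (lowest, median, highest), 132, 179.7, 182 and 218 at day 2, 1486, 1920.3, 1237, 1263 and 1229.7 at day 6, and 2176 and 2131 at day 8. The rise was 2.98 ± 0.19 at day 6 (adjusted p = 6.2e-17) and 3.59 ± 0.26 at day 8, again without overlap.

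Col4a5, the X-linked chain mutated in Alport syndrome, started near the floor of the signal range. It gave 7.3, 19.5 and 29.2 at day 0 (lowest, median, highest) and 16.6 to 35.9 on the 4 arrays of day 2. At day 6 it gave 275 and 398 in the first array set and 166, 166 and 176 in the second, and at day 8 588 and 598. It rose by 2.33 ± 0.19 and 3.62 ± 0.26 at days 6 and 8 (adjusted p = 3.9e-14 and 6.9e-15), and both day 8 arrays lay above all 5 of day 6. Its divergent neighbour Col4a6 moved less: the level was 81.7 ± 16.2 (SD, n = 7) at day 0 and 165 ± 23.6 (n = 5) at day 6, a difference of 0.80 ± 0.10 that missed the fold minimum although the arrays did not overlap. Col4a4 stayed dim in all groups.

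Col18a1 differed from the type IV chains. Its signal was already 1353, 1925 and 2128 at day 0 (lowest, median, highest) and was 1696, 1908, 2599 and 2556 at day 2, 1681, 1909, 1622, 1692 and 1497 at day 6, and 1719 and 1881 at day 8. The ranges overlap at every day, and the day 6 difference was -0.08 ± 0.12 (95% interval -0.32 to 0.17).

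**Figure D2:**
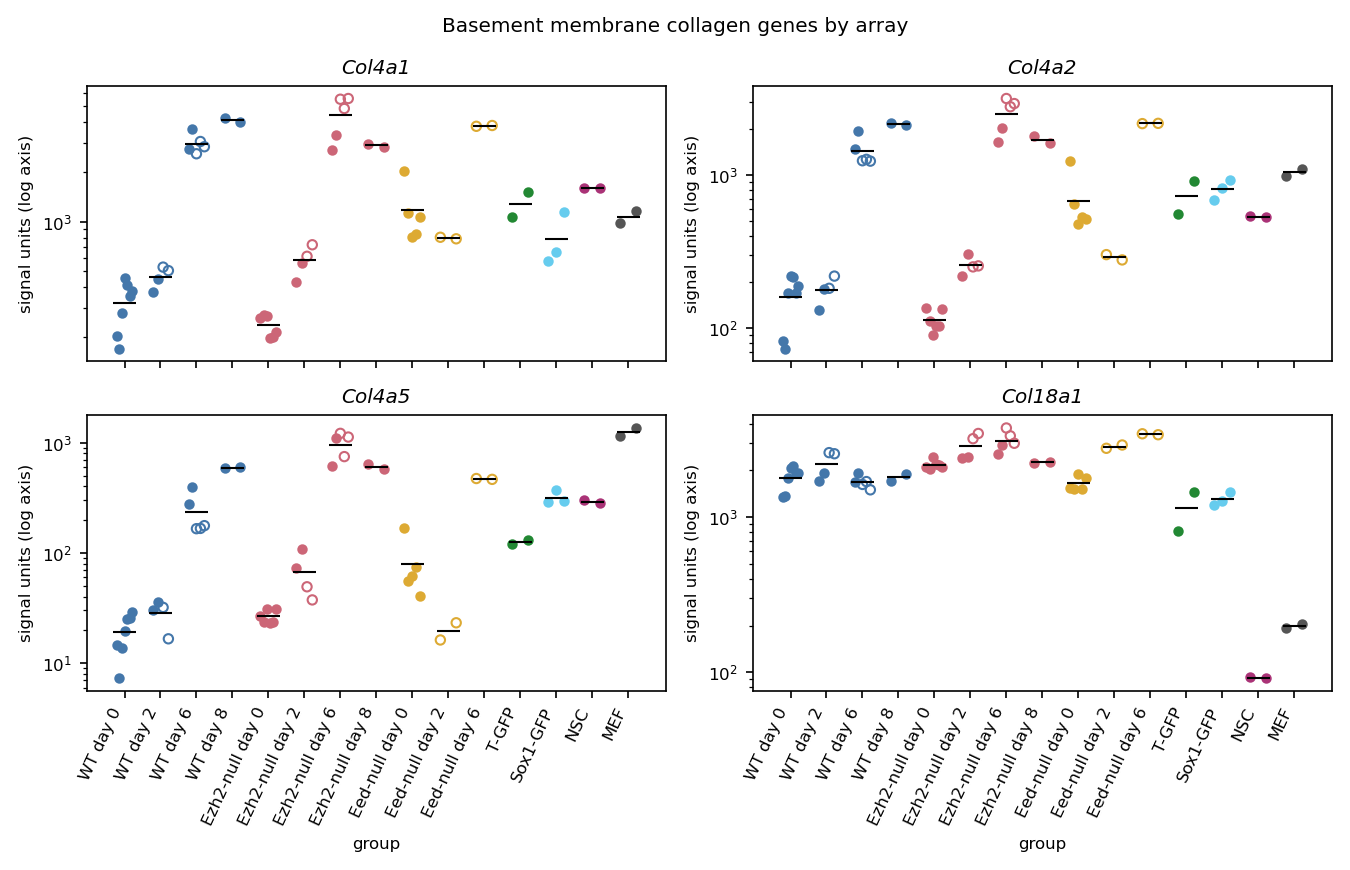
Signal of 4 basement membrane collagen genes on each array (points, log axis) in the 15 groups; filled points are first-set arrays and all arrays of other days, open points are second-set arrays of days 2 and 6, and black lines are group means. Col4a1, Col4a2 and Col4a5 rise by day 6 in all 3 genotypes, and Col18a1 is low in the neuronal stem cell (91.7 and 92.8) and MEF (193 and 205) arrays.

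Fibrillar chains followed several courses in wild-type cells. Col3a1 gave 61.5, 76.0 and 122 at day 0 (lowest, median, highest), 63.2, 50.4, 78.7 and 70.1 at day 2, 379, 465, 226, 323 and 320.4 at day 6, and 3146 and 2828 at day 8. Both day 8 arrays stand far above all day 6 arrays; the rise over day 0 was 1.73 ± 0.31 at day 6 (adjusted p = 6.5e-06) and 4.77 ± 0.42 at day 8 (adjusted p = 2.6e-12). Col5a1, whose chain nucleates collagen I fibrils, gave 39.6, 123 and 196 at day 0, 75.7, 106, 273 and 245 at day 2, 624, 779, 975, 1092 and 901 at day 6, and 1054 and 1012 at day 8. It rose by 2.80 ± 0.31 at day 6 (adjusted p = 2.6e-10), with every day 6 array above every earlier one. Col1a1, the main chain of bone and skin collagen, gave 30.5, 33.3, 97.2 and 97.6 at day 2, 379, 480.4, 875, 648 and 609.6 at day 6, and 982 and 883 at day 8, against 3.3, 122 and 237 at day 0. Its rise was 2.61 ± 0.53 at day 6 and 3.27 ± 0.72 at day 8 (adjusted p = 5.3e-05 and 0.00027).

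Col1a2, the partner of Col1a1 in collagen I, behaved differently at day 6. Col1a2 signal was 76.0, 269 and 512 at day 0 (lowest, median, highest), 119, 129.9, 198 and 149.6 at day 2, 515 and 519 in the first set at day 6, and 277, 268 and 215 in the second. The day 6 arrays overlap those of day 0 (0.62 ± 0.41, adjusted p = 0.19), whereas the day 8 arrays, at 1136 and 1071, were higher by 2.24 ± 0.56 (adjusted p = 0.0011). Col11a1, a chain of cartilage fibrils, rose from 28.3, 34.8 and 37.6 (lowest, median, highest) to 111, 239, 252, 238 and 208 at day 6 and 276 and 307 at day 8, by 1.83 ± 0.30 and 2.29 ± 0.41 (adjusted p = 1.8e-06 and 1.4e-05). Col5a2 was called at both days (1.12 ± 0.43 and 1.89 ± 0.59), but its day 6 call was lost without any 1 of 5 arrays (wild-type replicates 1, 2 and 3 of day 0 and 2 and 3 of day 6; 0.92 to 0.97, adjusted p = 0.061 to 0.082), and its day 8 call without either day 8 array (adjusted p = 0.062 and 0.078). Against wild-type replicates 4 to 7 alone the Col5a2 differences were 0.29 (adjusted p = 0.60) at day 6 and 1.06 (adjusted p = 0.13) at day 8, and within the second set its day 6 difference was 0.92 (adjusted p = 0.088). Col2a1, the cartilage collagen, gave 42.4, 78.2 and 109 at day 0 (lowest, median, highest), then 93.3 and 116 in the first and 245 and 283 in the second set at day 2, 129 and 111 in the first and 235, 234 and 226 in the second set at day 6, and 115 and 137 at day 8. At days 2 and 6 the second-set arrays are about level with each other and above all others, and the differences from day 0 (0.89 ± 0.25 and 0.96 ± 0.23) missed the fold minimum. Within the second set alone, Col2a1 (1.45 ± 0.14) and Col5a1 (1.18 ± 0.34) were called at day 2, against 7.00% of all genes. Those day 2 arrays are CJ7 alone, whereas the day 0 arrays are of J1, CJ7 and E14tg1, so lines differ in this comparison as well.

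In counts, 8 of the 30 tested collagen genes were called higher and 0 lower at day 6 of wild-type differentiation, against 5.96% of all genes called higher and 4.38% lower. The 8 were 3 of 5 type IV and 5 of 9 fibrillar genes; the median difference was 2.33 over the type IV genes and 1.12 over the fibrillar genes, against 0.04 over all genes. At day 8, 10 were called higher and 0 lower (7.71% and 3.69% of all genes), with Col1a2 and the short-chain network gene Col8a1 added (1.00 ± 0.30). The Col8a1 call was lost without any 1 of 6 arrays (0.96 to 1.01). At day 2 limma called 0 (3.43% of all genes), with 11 of 30 at an unadjusted p under 0.05. Without wild-type day 2 replicate 1 or 2 the day 2 count was 1. The 3 time points share the wild-type arrays of day 0. Over the same days the summed signal of 14 endoderm markers (Sox17, Gata6, Dab2, Sparc and others, none listed at 0) was 1978.3 to 2637.0 at day 0 and 5163.5 to 6988.0 at day 6, with 6 of 13 tested called higher; Sparc is also counted among the basement membrane partners below. Of 8 pluripotency markers 8 were called lower at day 6, and 6 of 7 primitive streak and mesoderm markers higher, their summed signal being 420.3 to 516.7 at day 0 and 3073.2 to 7905.9 at day 6. The sum of 15 fibroblast markers was 781.1 to 1922.4 at day 0, 1279.1 to 1633.5 at day 6 and 3555.6 to 4112.9 at day 8. The part of these cell types in the collagen values was not tested, and in such bulk samples more cells of a type and more RNA per cell cannot be told apart.

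**Figure D3:**
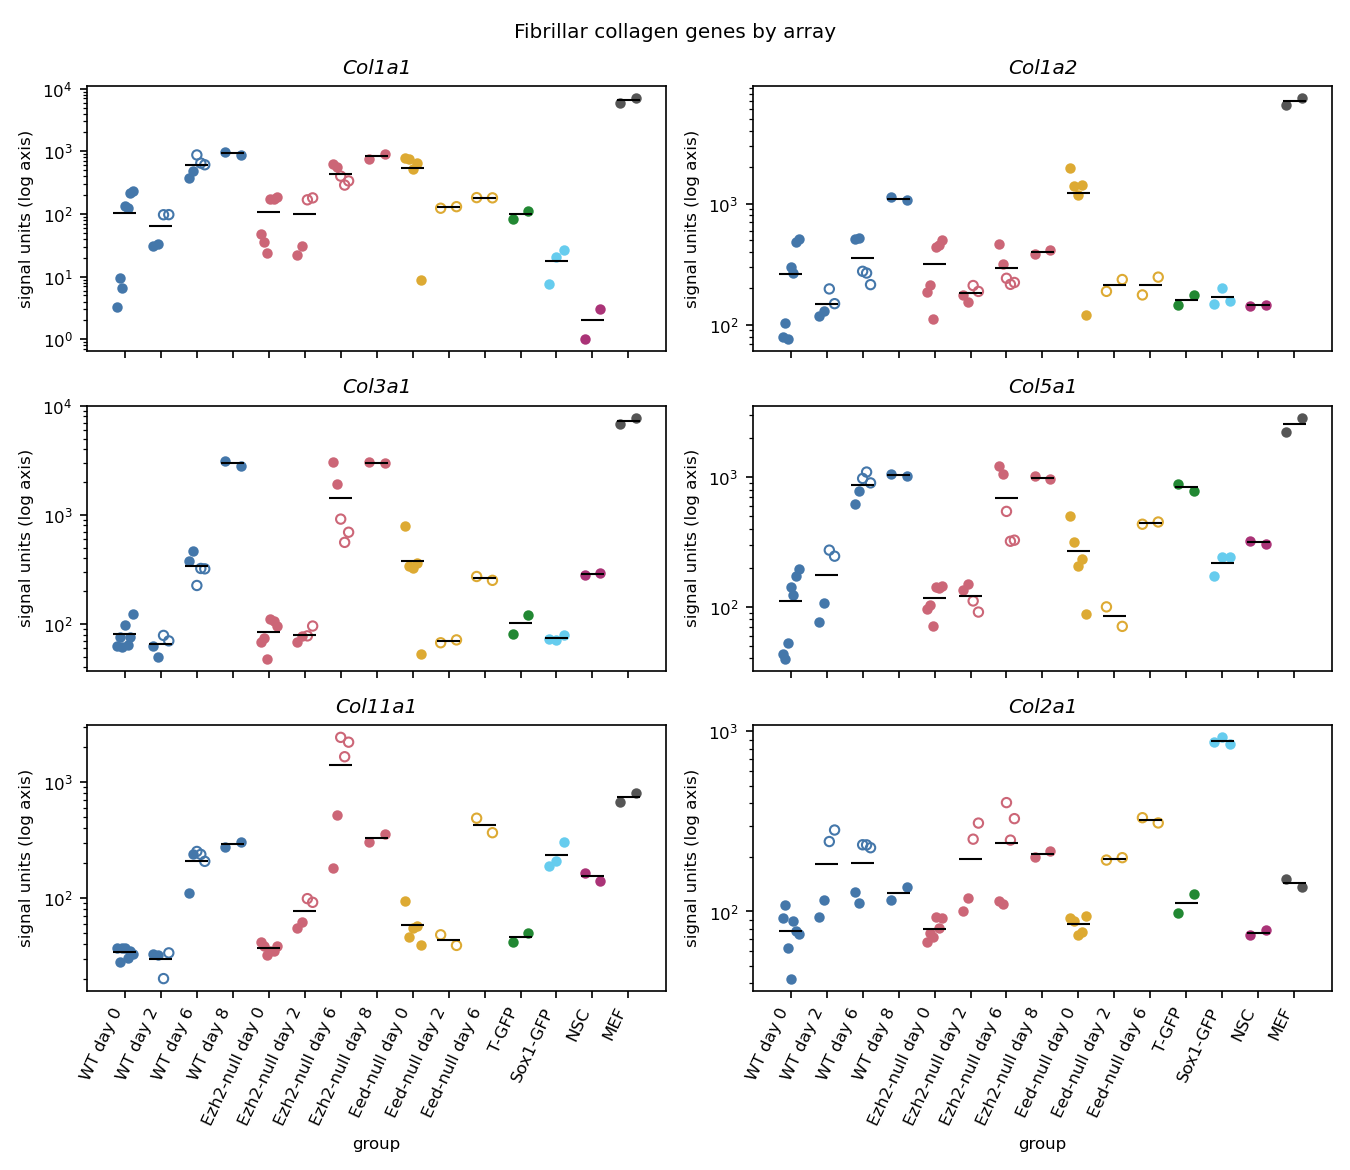
Signal of 6 fibrillar collagen genes on each array (points, log axis) in the 15 groups; open points are second-set arrays of days 2 and 6, and black lines are group means. Levels in MEF lie above all other groups for Col1a1, Col1a2, Col3a1 and Col5a1, day 0 arrays of one genotype spread widely for Col1a1, Col1a2 and Col5a1, and Col11a1 in Ezh2-null day 6 cells reaches 2425 in the second set against 517 or less in the first.

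Undifferentiated Ezh2-null cells showed no called collagen gene. Col4a1 gave 197, 238 and 274 signal units (lowest, median, highest of 6) and Col4a2 90.4, 108 and 135, both within the wild-type range, with differences of -0.35 ± 0.19 and -0.34 ± 0.18 (95% intervals -0.73 to 0.03 and -0.71 to 0.03). Col18a1 (2024, 2132.5 and 2454) differed by 0.29 ± 0.12 and Col1a1 (23.4, 109 and 187) by 0.25 ± 0.50, with overlapping arrays. The limma count was 0 of 30, against 0.0507% of all genes, and 2 of 30 had an unadjusted p under 0.05.

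Eed-null cells differed at day 0. Col4a1 gave 2031, 1137, 811, 849 and 1068 signal units and Col4a2 1228, 649.5, 475, 528 and 515 on the 5 Eed-null arrays. All lay above the highest wild-type array of each gene (455 and 219), and the differences were 1.76 ± 0.20 and 1.88 ± 0.19 (adjusted p = 2.8e-09 and 3.7e-10). Replicate 1 stood out in both genes. Col4a5 (168, 55.7, 61.5, 73.6 and 40.6) was higher by 1.04 ± 0.19 without overlap, but missed the fold minimum without Eed-null replicate 1 (0.81) or wild-type replicate 2 (0.98). Col4a6 (140, 234, 178, 169 and 134) was higher by 0.83 ± 0.10 without overlap and missed the fold minimum. Col18a1 gave 1541, 1525, 1886, 1508 and 1796, within the wild-type range (-0.10 ± 0.12, 95% interval -0.35 to 0.14).

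The fibrillar chains in the same Eed-null arrays split by replicate. Col1a1 gave 788, 751, 518 and 647 in replicates 1 to 4 and 9.0 in replicate 5. Col1a2 gave 1983, 1395, 1169 and 1417 in replicates 1 to 4 and 122 in replicate 5, and Col3a1 793, 342, 324 and 364 against 53.2. For Col5a1 the first 4 gave 497, 316, 208 and 233 and the fifth 87.2, and for Col5a2 the values were 1425, 558, 458 and 569.7 against 86.2. In all 5 genes replicates 1 to 4 lay above every wild-type array, and replicate 5 lay within the wild-type range or, for Col3a1, just below it. With all 5 arrays the differences were 1.99 ± 0.53 for Col1a1, 1.98 ± 0.41 for Col1a2, 1.56 ± 0.31 for Col3a1, 1.60 ± 0.43 for Col5a2 and 1.06 ± 0.31 for Col5a1 (adjusted p = 0.0023, 0.00013, 6.8e-05, 0.0025 and 0.0048). Without replicate 5 they were 2.81, 2.64, 2.04, 2.12 and 1.36, while Col4a1 and Col4a2 stood at 1.77 and 1.95.

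The fibrillar split ran along the fibroblast markers. Their summed signal was 5704.3, 4056.5, 3590.6 and 3999.6 in Eed-null replicates 1 to 4 and 848.8 in replicate 5. In wild type it was 781.4, 836.9 and 781.1 in replicates 1 to 3, where Col1a1 gave 3.3, 9.4 and 6.6, and 1251.1, 1229.4, 1838.1 and 1922.4 in replicates 4 to 7, where Col1a1 gave 136, 122, 218 and 237. In Ezh2-null cells replicates 1 to 3 gave sums of 992.4, 958.4 and 758.0 with Col1a1 at 47.2, 35.7 and 23.4, and replicates 4 to 6 sums of 1455.3, 1474.4 and 1518.2 with Col1a1 at 172, 176 and 187. Of the 16 markers listed 15 are on the array, none is listed at 0, 4 of them (Dcn, Lum, Lox and Loxl1) also belong to the partner lists below, and 4 of the 14 tested were called higher in Eed-null cells. The part of fibroblast RNA in the fibrillar result was not tested. In Eed-null replicate 5, whose fibroblast sum is within the range of wild-type replicates 1 to 4, Col4a1 (1068) and Col4a2 (515) were higher than in any wild-type array. Within wild type Col4a1 gave 203, 170.1 and 281.5 in replicates 1 to 3 and 455, 414.5, 354 and 378 in replicates 4 to 7. Col4a2 had the same order, and Eed-null replicate 1, with the highest sum, was highest in both genes. In Ezh2-null cells Col4a1 was lower in replicates 4 to 6 (197, 200 and 215) than in 1 to 3. The part of fibroblast RNA in the type IV values was not tested. The endoderm marker sum was 3203.7 to 5395.5 in Eed-null against 1978.3 to 2637.0 in wild-type arrays, with 4 of 13 called higher, and its part was not tested either.

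**Figure D4:**
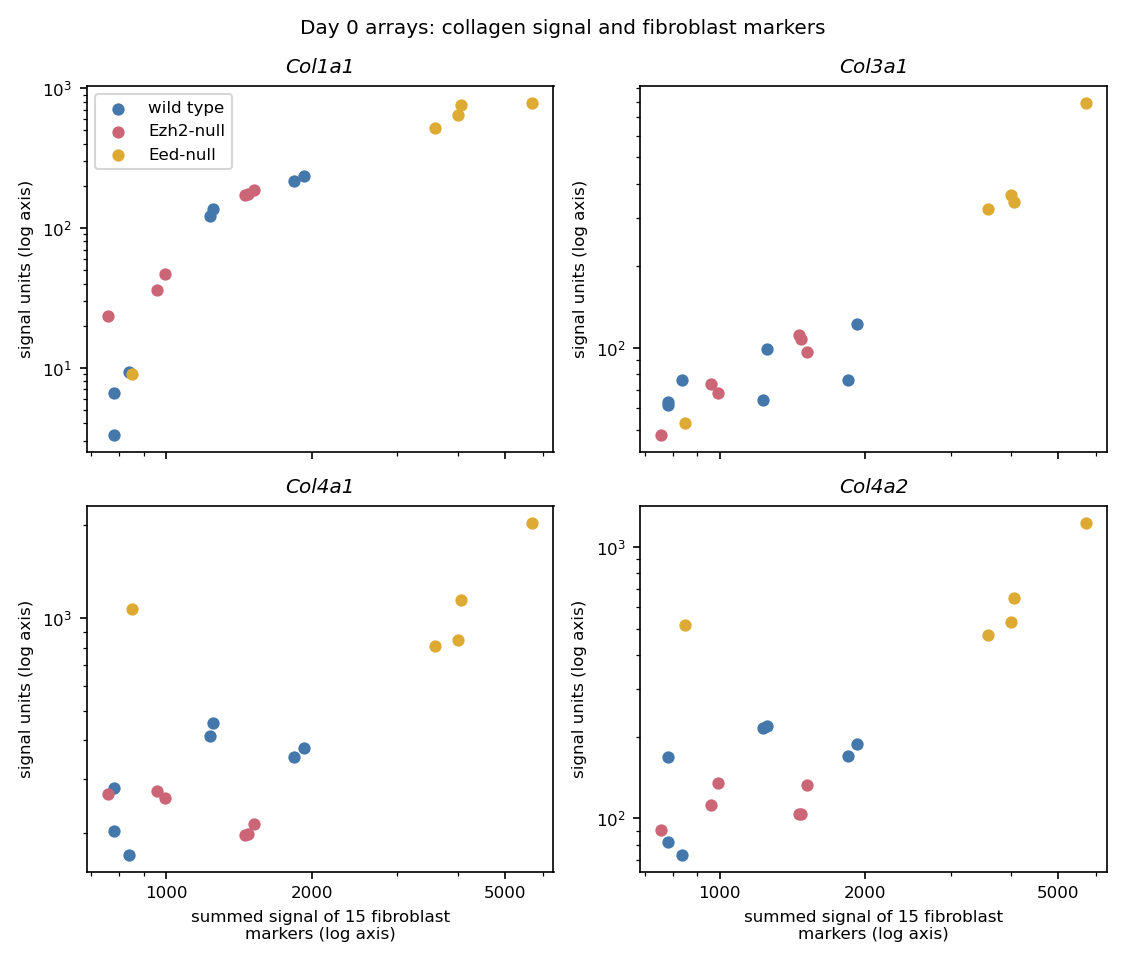
Summed signal of 15 fibroblast markers (x, log axis) against the signal of 4 collagen genes (y, log axis) on the 18 arrays of day 0, coloured by genotype. Col1a1 is higher on arrays with a higher sum in all 3 genotypes, whereas for Col4a1 and Col4a2 the Eed-null array with a sum of 848.8 lies with the other Eed-null arrays, above all wild-type and Ezh2-null arrays.

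In all, 8 of 30 collagen genes were called higher and 0 lower in Eed-null cells at day 0, against 1.52% of all genes called higher and 0.739% lower, and 12 of 30 did not overlap between the groups (23.5% of all genes). The 8 called were 3 of 5 type IV and 5 of 9 fibrillar genes. Wild-type replicates 4 to 7 of day 0 include every E14tg1 array and no J1 array, so a comparison with them alone also changes the mix of lines. Against wild-type replicates 4 to 7 alone the count was 4 (2.30% of all genes): Col4a1 (1.41), Col4a2 (1.55), Col3a1 (1.44) and Col1a2 (1.21) passed, and Col1a1 (0.96, adjusted p = 0.15), Col5a2 (0.77, adjusted p = 0.16), Col5a1 (0.51, adjusted p = 0.20) and Col4a5 (0.88) did not. Col5a1 also missed the fold minimum without any 1 of 5 arrays (wild-type replicates 1, 2 and 3, Eed-null replicates 1 and 2; 0.82 to 0.97). With the mean of all probe sets Col5a2 (0.97), Col3a1 (0.87) and Col4a5 (0.70) missed the fold minimum. Type VI chains Col6a1 (0.77 ± 0.10) and Col6a2 (0.61 ± 0.11) and the minor fibrillar chain Col5a3 (0.81 ± 0.09) stayed under it in the main fit.

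At day 2 limma called 0 collagen genes in Ezh2-null against wild-type cells (0.123% of all genes) and 0 in Eed-null against wild-type cells (1.04%), with 4 and 5 of 30 at an unadjusted p under 0.05. With the replicate number as a block limma likewise called 0 for Ezh2-null cells. In 4 of 4 same-numbered pairs the Ezh2-null array was the higher for Col18a1 (2392, 2440.4, 3197 and 3453 in Ezh2-null cells; 0.39 ± 0.15, adjusted p = 0.26), Col4a1 (0.30 ± 0.24) and Col4a2 (217, 305, 251 and 254; 0.47 ± 0.23), none of them called. The labels state no pairing. Pair directions were counted for these genes alone, so no share over the other collagen genes or all genes is given. At day 6 the Ezh2-null array was the higher in 5 of 5 pairs for Col18a1 and Col4a2 and in 3 of 5 for Col4a1. At day 2 Col4a1 gave 432, 562, 618 and 726 in Ezh2-null and 806 and 788 in Eed-null cells, so the Eed-null arrays lay above all wild-type arrays of that day (0.75 ± 0.29, adjusted p = 0.14). Col11a1 in Ezh2-null cells gave 55.8 and 61.9 in the first and 99.1 and 92.1 in the second set, against 33.2, 32.4, 20.3 and 33.8 in wild type, without overlap (0.80 ± 0.36, adjusted p = 0.45). Within the second set alone Col11a1 was called (1.12 ± 0.25, adjusted p = 0.0056; 0.775% of all genes). In Eed-null cells Col5a1 was called lower in that set (-1.32 ± 0.42, adjusted p = 0.044; 1.30% of all genes), at 99.8 and 70.6 against 273 and 245.

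Between day 0 and day 6 type IV and fibrillar chains rose in Ezh2-null cells. Col4a1 gave 2719 and 3369 in the first and 5533, 4859 and 5588 in the second set, and Col4a2 1636 and 2038 in the first and 3153, 2786 and 2922 in the second. Against Ezh2-null cells of day 0 they rose by 4.01 ± 0.20 and 4.10 ± 0.20 (adjusted p = 2.0e-20 and 5.6e-21), and Col4a5 (611, 1105, 1212, 746 and 1122, against a highest value of 31.2 at day 0) by 4.04 ± 0.19. Of 30 genes 12 were called higher and 0 lower between day 0 and day 6 in Ezh2-null cells, against 8.64% and 7.64% of all genes; in the first set alone it was 7 (14.2% of all genes), with Col5a2 (1.06, adjusted p = 0.105), Col8a1 (0.94), Col4a6 (0.88), Col12a1 (0.84) and Col2a1 (0.36) lost. The 12 were Col4a6, at its smallest margin (1.00 ± 0.11, lost without any 1 of 5 arrays, namely Ezh2-null replicates 4, 5 and 6 of day 0 and 3 and 5 of day 6, at 0.95 to 0.99), the 3 type IV genes above, 6 fibrillar genes, Col8a1 (1.55 ± 0.23) and the fibril-associated Col12a1 (1.19 ± 0.15). The fibrillar members included Col1a1 (1.95 ± 0.55), Col2a1 (1.14 ± 0.24) and Col5a2 (1.90 ± 0.44). Col2a1 gave 114 and 109.5 in the first and 402, 249 and 328 in the second set, and its difference fell to 0.49 with the array set as a covariate and to 0.93 without Ezh2-null day 6 replicate 3.

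Set against wild-type cells of the same day, 3 of 30 collagen genes were called higher in Ezh2-null cells at day 6 and 0 lower, against 1.89% and 1.14% of all genes. Col4a5 was higher by 1.91 ± 0.20 (adjusted p = 9.5e-10), and all 5 Ezh2-null arrays lay above the highest wild-type array (398). Col3a1 gave 3034 and 1934 in the first and 915, 560.1 and 694 in the second set, above all wild-type arrays (226 to 465), a difference of 1.71 ± 0.33 (adjusted p = 9.5e-05). Col11a1 gave 182 and 517 in the first and 2425, 1652 and 2204 in the second set, a difference of 2.12 ± 0.33 (adjusted p = 2.7e-06) with arrays that overlapped. The array sets thus ran in opposite directions for these fibrillar chains: Ezh2-null Col3a1 was highest in the first set and Ezh2-null Col11a1 in the second. Within the first set 2 genes were called (2.14% of all genes), Col3a1 (2.44 ± 0.44) and Col4a5 (1.23 ± 0.26), and Col11a1 was not (0.80). Within the second set 8 were called (5.78% of all genes): Col11a1 (2.99 ± 0.21), Col4a5 (2.36 ± 0.22), Col5a2 (1.79 ± 0.56), Col8a1 (1.47 ± 0.28), Col4a2 (1.23 ± 0.25), Col3a1 (1.22 ± 0.36) and Col18a1 (1.05 ± 0.14) higher, and Col5a1 (-1.29 ± 0.34) lower. Without Ezh2-null replicate 1 the pooled count was 5. Beside these values, 7 of 8 pluripotency markers were called higher in Ezh2-null than in wild-type cells of day 6 and 6 of 7 primitive streak and mesoderm markers lower, with summed signals of 4895.0 to 17421.9 against 4269.1 to 7082.5 and of 832.9 to 1910.5 against 3073.2 to 7905.9. The endoderm sum was 7234.2 to 10164.2 against 5163.5 to 6988.0, with 2 of 13 called lower. The part of such differences in cell state in the collagen values was not tested.

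The Col5a1 arrays make the set difference plain. Ezh2-null day 6 cells gave 1207 and 1053 in the first set, above the wild-type pair (624 and 779), and 543, 319.7 and 326 in the second, below the wild-type arrays (975, 1092 and 901); the difference was 0.67 ± 0.42 in the first and -1.29 ± 0.34 in the second set, and -0.51 ± 0.33 pooled. Col1a1 (629 and 552, then 402, 289 and 337) and Col1a2 (468 and 317, then 242, 216 and 224) had the same order of sets within Ezh2-null cells and pooled differences of -0.41 ± 0.57 and -0.24 ± 0.44. For Col1a1 the difference from wild type was 0.44 ± 0.86 in the first and -0.98 ± 0.70 in the second set, neither of them called. The fibroblast marker sum was 3541.9 and 2722.6 in the first and 1914.2, 1621.6 and 2063.8 in the second set of Ezh2-null day 6 arrays, against 1279.1 to 1633.5 in wild type, with 0 of 14 tested markers called by limma and 6 at an unadjusted p under 0.05; its part was not tested. At day 8 limma called 0 collagen genes between Ezh2-null and wild-type cells (1.06% of all genes), and 0 of 30 had an unadjusted p under 0.05. Col3a1 was then at 3041 and 2982 in Ezh2-null against 3146 and 2828 in wild-type cells (0.01 ± 0.52, 95% interval -1.04 to 1.07), and Col4a1 at 2957 and 2846 against 4284 and 4036 (-0.51 ± 0.34, 95% interval -1.20 to 0.17). Col1a2 (384 and 412 against 1136 and 1071) did not overlap but was not called either (-1.40 ± 0.70, adjusted p = 0.39).

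In Eed-null cells at day 6 Col18a1 was called higher. Col18a1 gave 3437 and 3389 signal units against 1497 to 1909 in wild type, and was the 1 collagen gene of 30 called higher (1.01 ± 0.17, adjusted p = 3.9e-05), with 0 lower, against 1.85% and 1.25% of all genes. The call sits at the fold minimum: it was 0.97 without wild-type day 6 replicate 5 and 0.91 with the array set as a covariate, while within the second set it was 1.08 ± 0.16. Without wild-type day 6 replicate 1 or 2 the count was 2. Ezh2-null day 6 arrays had Col18a1 at 2544, 2930.1, 3746, 3333 and 2986, also above every wild-type array (0.87 ± 0.13), under the fold minimum. Both comparisons share the wild-type arrays. Col4a1 (3791 and 3833), Col4a2 (2162 and 2170.5) and Col4a5 (472 and 464) lay above all wild-type arrays of day 6 and were not called (0.36 ± 0.28, 0.61 ± 0.28 and 0.97 ± 0.27). The fibrillar genes Col11a1 (488 and 366 against 111 to 252) and Col2a1 (332 and 310.2 against 111 to 235) were above them too (0.96 ± 0.43 and 0.74 ± 0.33). Col1a1 (182 and 181) and Col5a1 (433 and 450.1) lay below all wild-type arrays and were not called either (-1.51 ± 0.75 and -0.91 ± 0.44). Further members, among them Col4a6, Col12a1 and Col5a3, lay above all wild-type arrays too. With so few arrays these positions carry little weight. No share over all genes is given for them, so nothing particular to collagen genes is read from them. Within the second set alone, to which both Eed-null arrays belong, 3 were called (3.53% of all genes): Col4a5 (1.31 ± 0.24) and Col18a1 higher and Col5a1 (-1.11 ± 0.38, adjusted p = 0.033) lower. Of 8 pluripotency markers 6 were called higher than in wild-type cells of day 6 (summed signal 15154.6 and 15380.5) and of 7 primitive streak and mesoderm markers 5 lower (1184.0 and 1283.7). The endoderm sum was 7395.9 and 7749.9 against 5163.5 to 6988.0, with 1 of 13 called higher and 2 lower. The part of these markers was not tested.

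**Figure D5:**
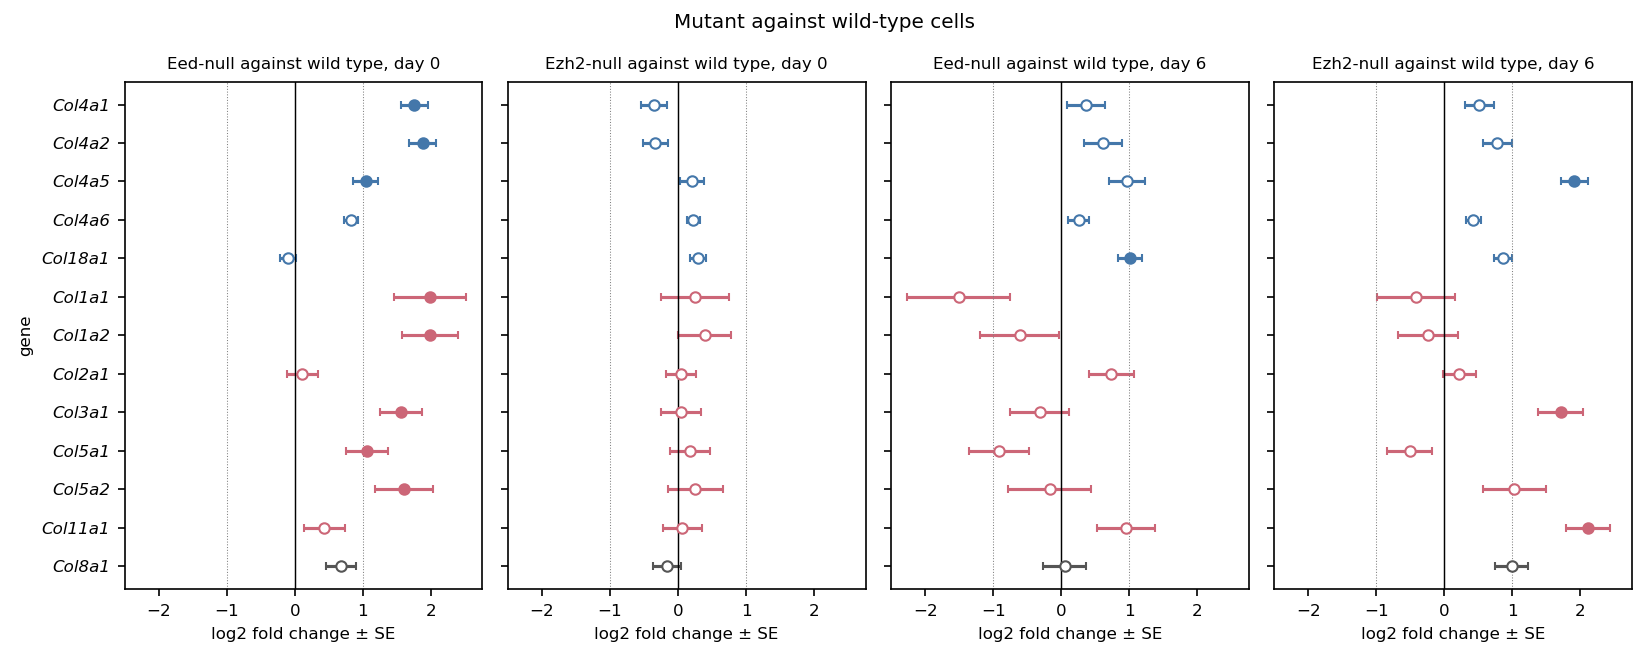
Log2 fold change ± SE (x) of mutant against wild-type cells at day 0 and day 6 for type IV genes and Col18a1 (blue), fibrillar genes (red) and Col8a1 (grey); filled points are called genes and dotted lines mark 2-fold. The 8 called genes of Eed-null day 0 cells hold both classes, Ezh2-null day 0 cells have none, and at day 6 Col18a1 is called in Eed-null and Col4a5, Col3a1 and Col11a1 in Ezh2-null cells.

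The change between day 0 and day 6 was also tested between genotypes. In Eed-null cells 6 collagen genes were called higher and 1 lower at day 6 than at day 0, against 5.55% and 4.58% of all genes: Col11a1 (2.35 ± 0.43), Col4a5 (2.26 ± 0.27), Col4a1 (1.75 ± 0.28), Col4a2 (1.72 ± 0.28), Col2a1 (1.59 ± 0.33; 0.51 with the array set as a covariate) and Col18a1 (1.04 ± 0.17; 0.79 with it) rose. Col1a2 fell by 1.97 on the log2 scale, to 177 and 248 (adjusted p = 0.0064; 0.090 without Eed-null day 6 replicate 1), and the Eed-null replicate 5 of day 0 already lay at 122. The difference of this change from that of wild type was called for 7 of 30 genes, 1 higher and 6 lower, against 2.27% and 2.41% of all genes. The lower ones were Col1a1 (-3.50 ± 0.92), Col1a2 (-2.60 ± 0.71), Col5a1 (-1.98 ± 0.53), Col3a1 (-1.88 ± 0.53), Col4a1 (-1.40 ± 0.34) and Col4a2 (-1.27 ± 0.34), and Col18a1 was higher (1.12 ± 0.21, adjusted p = 0.00020). For the 6 lower genes the Eed-null level at day 0 was raised, as given above. For Col1a1 (182 and 181) and Col5a1 (433 and 450.1) the Eed-null arrays of day 6 also lay below all wild-type arrays of that day. The levels of these genes therefore differed at both days. In the same test of the difference in change 4 of 14 fibroblast, 5 of 13 endoderm and 6 of 7 primitive streak and mesoderm markers were called lower and 6 of 8 pluripotency markers higher. The Eed-null fibroblast sum was 848.8 to 5704.3 at day 0 and 1270.9 and 1288.2 at day 6, and the part of these cell types was not tested. Without Eed-null day 6 replicate 1 the count was 4, with Col1a2, Col3a1 and Col5a1 lost (adjusted p = 0.081, 0.058 and 0.056), and without Eed-null day 0 replicate 5 it was 11. Without Eed-null day 6 replicate 2 Col3a1 was lost as well (adjusted p = 0.069). Col4a2 was lost against wild-type replicates 4 to 7 alone (-0.93) and in limma with the replicate block (adjusted p = 0.091). Col3a1 was lost with the mean of all probe sets (adjusted p = 0.061) and Col1a2 with only the arrays compared (adjusted p = 0.063). Col18a1 missed the fold minimum under quantile normalisation (0.96).

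For Ezh2-null cells the change differed from that of wild type in 5 of 30 genes, all toward a larger rise, against 1.85% of all genes (1.24% toward a smaller one). They were Col11a1 (2.05 ± 0.43, adjusted p = 0.00070), Col4a5 (1.71 ± 0.27, adjusted p = 1.2e-05), Col3a1 (1.67 ± 0.44, adjusted p = 0.0061), Col8a1 (1.15 ± 0.32, adjusted p = 0.0088) and Col4a2 (1.12 ± 0.28, adjusted p = 0.0036). In the first set alone 2 passed (2.09% of all genes), Col3a1 (2.40 ± 0.50) and Col4a5 (1.03 ± 0.30), while Col11a1 (0.74, adjusted p = 0.11), Col4a2 (0.45, adjusted p = 0.51) and Col8a1 (0.43, adjusted p = 0.59) did not. Col8a1 was also lost without Ezh2-null day 6 replicate 3 (0.97). In the second set alone the count was 7, for which no share of all genes is given.

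MEF carried the highest Col1a1, Col1a2, Col3a1, Col5a1 and Col5a2 signals of any group. Col1a1 gave 5943 and 7074 signal units, Col1a2 6559.5 and 7451 and Col3a1 6777 and 7764 on the pair of arrays, all above every other array of the series. Col5a1 (2226 and 2866), Col5a2 (4128 and 5327), Col6a1 (3606 and 4458), Col6a2 (2326 and 2861) and Col8a1 (2179 and 2722) were likewise above every other array. Against undifferentiated wild-type cells the largest differences were 6.04 ± 0.42 for Col3a1, 6.03 ± 0.72 for Col1a1, 4.87 ± 0.56 for Col1a2 and 4.85 ± 0.59 for Col5a2 (adjusted p = 1.7e-16, 1.3e-09, 4.3e-10 and 1.6e-09). The type VI chains rose by 4.35 ± 0.14 (Col6a1) and 4.18 ± 0.15 (Col6a2); over all ES cell arrays Col6a1 had stayed between 107.5 and 378 and Col6a2 between 82.6 and 257. Basement membrane chains were also higher: Col4a5 (1145 and 1356) by 4.65 ± 0.26, Col4a2 (985 and 1101) by 2.56 ± 0.26 and Col4a1 (979.8 and 1160.1) by 1.70 ± 0.27. Col18a1 went the other way, at 193 and 205, below every ES cell array (-2.96 ± 0.17, adjusted p = 1.7e-19). In all 16 of 30 genes were called higher and 1 lower, against 14.2% and 9.82% of all genes; 7 of 9 fibrillar, 3 of 5 type IV, 2 of 3 type VI and 3 of 7 fibril-associated genes (Col22a1, Col16a1 and Col12a1) were among the risen. Col16a1 passed the filter on dim signals through the 2 MEF arrays alone, as Col4a4 did through 2 Ezh2-null arrays of day 2, so its call follows from the filter; without both genes the count was 15 of 28. The Col12a1 call (1.04 ± 0.19) was lost without MEF replicate 2 (0.88). With the mean of all probe sets Col22a1 (0.77), the fibrillar Col5a3 (0.68) and Col12a1 (0.56) missed the fold minimum.

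Neuronal stem cells had raised type IV chains, and Col18a1 was lowest in them. Col4a1 gave 1592 and 1612, Col4a2 538 and 530.4 and Col4a5 301 and 280.1, all above every undifferentiated wild-type array (2.27 ± 0.27, 1.64 ± 0.26 and 2.67 ± 0.26). Col1a1 was at 1.0 and 3.0, the floor of the signal range, and Col1a2 at 144 and 146. Col18a1 gave 92.8 and 91.7, the lowest of all groups, a difference of -3.86 ± 0.17 (adjusted p = 1.2e-23). Col3a1 (284 and 292) was higher than in undifferentiated cells by 1.53 ± 0.42, Col11a1 (166 and 142) by 1.49 ± 0.41 and Col5a1 (324 and 305) by 1.43 ± 0.42. In all, 6 genes were called higher and 1 lower, against 12.3% and 10.9% of all genes. The Col5a1 call was lost against wild-type replicates 4 to 7 (0.88, adjusted p = 0.064). Between MEF and neuronal stem cells 12 were called higher in MEF and 0 lower (10.7% and 8.21% of all genes), or 11 of 28 without Col16a1 and Col4a4. Among them were Col1a2 (5.31 ± 0.70), Col5a2 (5.10 ± 0.73), Col8a1 (4.53 ± 0.38) and Col1a1, for which no fold is given because its signal in neuronal stem cells is at the floor. Col22a1, also among them, missed the fold minimum with the mean of all probe sets (0.80).

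Sox1-GFP progenitors were marked by Col2a1. Its 3 arrays gave 878, 927 and 849 signal units, while no other array of the series exceeded 402, and the difference from undifferentiated wild-type cells was 3.08 ± 0.27 (adjusted p = 4.7e-13). The neuronal stem cells, at 73.6 and 78.6, were back within the range of undifferentiated cells (-3.08 ± 0.36 against Sox1-GFP cells, adjusted p = 1.6e-09). Col4a5 (289.5, 368 and 294) was higher than in undifferentiated cells by 2.77 ± 0.22, Col4a2 (685, 826 and 921) by 2.20 ± 0.23, Col11a1 (190.2, 210.0 and 306) by 1.99 ± 0.35 and Col4a1 (574, 652 and 1139) by 1.21 ± 0.23. The Col4a1 call was lost without Sox1-GFP replicate 3 (0.93) and against wild-type replicates 4 to 7 (0.87). These 5 genes were called higher and 0 lower, against 9.33% and 4.08% of all genes. Col18a1 was then still at 1199, 1271 and 1442, so neuronal stem cells were lower by 3.42 ± 0.19 (adjusted p = 2.8e-19). Of the 5 genes called between neuronal stem and Sox1-GFP cells, Col3a1 and Col4a1 were higher (5.53% of all genes) and Col18a1, Col2a1 and Col26a1 (-1.44 ± 0.18; 25.2 and 28.2 against 123, 164 and 101) lower (8.79% of all genes). The Col4a1 difference (1.06 ± 0.31) was lost without Sox1-GFP replicate 1 (0.87) or 2 (0.96). The Col26a1 difference missed the fold minimum with the mean of all probe sets (-0.71).

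In T-GFP mesoendodermal cells Col5a1 was at 888 and 783 signal units against a highest value of 196 in undifferentiated wild-type cells (2.75 ± 0.42, adjusted p = 9.5e-07), a level that wild-type cells of day 6 (624 to 1092) also reached, while Col1a1 (83.9 and 113) and Col3a1 (81.6 and 122) overlapped the undifferentiated range. Col4a1 (1072 and 1509), Col4a2 (553 and 909.5) and Col4a5 (120.5 and 132) were higher by 1.94 ± 0.27, 2.03 ± 0.26 and 1.64 ± 0.26. These 4 genes were called higher and 0 lower, against 5.56% and 3.93% of all genes. Against Sox1-GFP cells 2 were higher and 3 lower (3.83% and 6.49% of all genes). Col5a1 (1.80 ± 0.48) and the transmembrane collagen Col13a1 (1.06 ± 0.21; 95.2 and 89.6 against 32.4, 23.6 and 27.2) were higher, and Col2a1 (-2.68 ± 0.36), Col11a1 (-1.75 ± 0.47) and Col4a5 (-1.14 ± 0.29) lower. The comparisons of the 4 cell types with undifferentiated cells share the same 7 wild-type arrays.

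Genes that make, process and bind collagen changed in part alongside the chains. Serpinh1 encodes the collagen chaperone HSP47 and Pxdn the peroxidase that crosslinks collagen IV. In wild-type cells at day 6 Serpinh1 rose by 2.66 ± 0.24 and Pxdn by 2.22 ± 0.19 (adjusted p = 8.4e-13 and 4.0e-13), as did Bmp1, the procollagen C-proteinase (2.40), and the receptor Ddr1 (1.33). Of all genes 5.96% were called higher and 4.38% lower. Of 15 hydroxylation genes limma called 0 at day 6, with 9 at an unadjusted p under 0.05; of 10 folding and export genes 2 were higher, of 10 processing and crosslinking genes 2 were higher and 1 (Pcolce, -1.18) lower, of 7 receptors 3 were higher and of 14 laminins, nidogens and other basement membrane partners 3 were higher. Of 7 collagenases, gelatinases and their inhibitors 3 were higher (Mmp14, Mmp2 and Timp2), and of 7 small proteoglycans and fibril regulators 1 was (Fn1). In Eed-null cells at day 0, where 1.52% of all genes were called higher, these were the prolyl hydroxylase subunits P4ha1 (1.05) and P4ha2 (1.19), Lox (1.73) and the laminin chain Lama1 (1.18), which are 2 of 15 hydroxylation, 1 of 10 processing and 1 of 14 basement membrane partner genes. The collagenase Mmp13 (1.53) and the metalloproteinase inhibitors Timp2 (1.20) and Timp3 (1.74) made 3 of 7, and the small proteoglycan Bgn (2.56) 1 of 7. Limma called 0 of 10 folding and 0 of 7 receptor genes (6 and 6 at an unadjusted p under 0.05).

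In Ezh2-null cells at day 6 (1.89% of all genes called higher against wild type) the called partners were Nid1 (1.51; 1 of 14 basement membrane partners), Plod2 (1.08; 1 of 15 hydroxylation genes), Ddr1 (1.06; 1 of 7 receptors) and Timp3 (2.12; 1 of 7 collagenases, gelatinases and inhibitors). Limma called 0 of 10 folding, 0 of 10 processing and 0 of 7 proteoglycan genes there (4, 4 and 2 at an unadjusted p under 0.05). In Eed-null cells at day 6 (1.85% higher and 1.25% lower) Nid1 (1.05) and Hspg2 (1.32), 2 of 14 basement membrane partners, and Timp3 (1.95) were higher and the gelatinase Mmp2 (-1.02) lower. In MEF, where 14.2% of all genes were higher and 9.82% lower than in undifferentiated cells, 9 of 15 hydroxylation genes were higher, 6 of 10 folding genes, 6 of 10 processing genes with 1 lower, 3 of 7 receptors, 4 of 14 basement membrane partners with 2 lower, 5 of 7 collagenases, gelatinases and inhibitors, and 4 of 7 proteoglycans and fibril regulators. Examples are Ddr2, a receptor of fibrillar collagens (4.71), Lox, the enzyme that crosslinks fibrils (5.73), Serpinh1 (3.05) and Pcolce2 (-3.29).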

How the data were processed

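Total RNA was extracted with Trizol and hybridised to Affymetrix arrays, per the labels' protocols. Each probe set has 1 linear intensity on each array in the values the authors deposited, which were used unchanged. Their summarisation and scaling are not stated in the sources used here. Of 45037 probe sets, 34945 had 1 symbol in the platform annotation, 932 several and 9160 none; 34741 symbols were matched to a current gene table, which changed 0. Tests covered genes whose probe set exceeded the array median on 2 or more arrays (13807 of 18193 genes).

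Groups came from the sample titles. Log2(signal + 32) was fitted with limma 3.58.1 in R 4.3.3, with 1 mean per group over 53 arrays (38 residual and 4.6 prior degrees of freedom), for 21 comparisons. Genes given on every array were 7 fixed members and the 4 called members of largest change in a comparison. The members, gene lists and rules were chosen with earlier results of these data known, and the array sets were fitted alone after seeing the data. The sets come from a score over 3196 pairs of probe sets that share a gene (41.1% of variance; 17.5 or more in the second set, -6.7 or less in the first). The fit was tested on simulated data.

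Deviations from the group means correlated between same-numbered wild-type and Ezh2-null arrays. The correlation was 0.566 to 0.70 over the 4 pairs of day 2 and 0.384 to 0.721 over the 5 pairs of day 6. The main fit does not pair the arrays, so its p-values treat them as independent. A replicate block was fitted as an alternative. With it the Ezh2-null count against wild type stayed at 0 at day 2 and at 3 at day 6. The labels state no pairing, and the array sets follow the same numbers. Alternatives were quantile normalisation, a smaller pseudocount (8) and a larger one, other filters, the mean of all probe sets, only the arrays compared, a replicate block, the array set as a covariate, wild-type replicates 4 to 7 alone, and each array left out in turn. Promoter windows are RefSeq's on GRCm38.p6.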

Additional observations from a re-analysis of the deposited data

Results flagged for a closer look

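Across the 21 collagen genes called in any comparison, 147 combinations of a gene and a group of 4 to 10 arrays were examined for a single array far from the others, and 9 were found; chance alone gives about 1 in 20. Eed-null day 0 replicate 1 stood above the other 4 arrays in 4 genes: Col4a1 (2031 against 811 to 1137 signal units), Col4a2 (1228 against 475 to 649.5), Col4a5 (168 against 40.6 to 73.6) and Col8a1 (385 against 57.7 to 142). Eed-null day 0 replicate 5 was low in Col6a1 (169.5 against 327 to 378). Ezh2-null day 6 replicate 1 was high in Col6a1 (218 against 165 to 180.0), and Ezh2-null day 2 replicate 3 in Col13a1 (62.9 against 29.7 to 32.4). Wild-type day 2 replicate 3 was low in Col11a1 (20.3 against 32.4 to 33.8) and high in Col5a3 (59.6 against 42.9 to 45.4).

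The change from day 0 to day 6 differed between genotypes, by the interaction term in limma, for 12 combinations. Between Ezh2-null and wild-type cells the differences were 2.05 for Col11a1, 1.71 for Col4a5, 1.67 for Col3a1, 1.15 for Col8a1 and 1.12 for Col4a2 on the log2 scale. Between Eed-null and wild-type cells they were -3.50 for Col1a1, -2.60 for Col1a2, -1.98 for Col5a1, -1.88 for Col3a1, -1.40 for Col4a1, -1.27 for Col4a2 and 1.12 for Col18a1. All Eed-null arrays of day 6 belong to the second array set and none of day 0 does, so set and day cannot be told apart within Eed-null cells. Wild-type arrays of day 6 lie in both sets. With the second set alone, or with the array set as a covariate, the Eed-null interaction count was 9 in place of 7.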

How the results depend on the processing

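None of the 116 calls reversed its direction under any alternative run; uncalled values did in places, such as Col5a1 in Ezh2-null cells at day 6 (0.67 in the first set, -0.51 pooled). Of 116 calls, a pseudocount of 8 and no filter kept all 116, the larger pseudocount kept 93, the mean of all probe sets 102, quantile normalisation 108 and the array set as a covariate 109; the filter at the 75th percentile kept all 109 it tested. The counts of called genes that moved by over 1.5 times were as follows. With the mean of all probe sets, Eed-null against wild type gave 5 in place of 8 at day 0 and 2 in place of 1 at day 6; wild-type replicates 4 to 7 gave 4 at day 0, and 1 in place of 0 for wild-type day 2 against day 0. A pseudocount of 8 gave 2 for Eed-null at day 6 and 1 for wild-type day 2; the larger pseudocount gave 0 for Eed-null at day 6 and 3 in place of 5 for the Ezh2-null interaction, for T-GFP against Sox1-GFP cells and for neuronal stem cells against Sox1-GFP cells. Only the arrays compared gave 2 for Eed-null at day 6 and 1 in place of 0 for Ezh2-null at day 8. The first set alone gave 7 in place of 12 for Ezh2-null day 6 against day 0 and 2 in place of 5 for its interaction. The second set alone gave 8 in place of 3 for Ezh2-null and 3 in place of 1 for Eed-null at day 6, 1 in place of 0 for either mutant at day 2, and 2 in place of 0 for wild-type day 2 (Col2a1 1.45 and Col5a1 1.18). The cause was not tested.

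With the replicate block, which uses only the arrays compared, the count was 2 in place of 0 for Eed-null at day 2, 4 in place of 1 for Eed-null at day 6, 11 in place of 7 for Eed-null day 6 against day 0 and 1 in place of 0 for Ezh2-null at day 8; it changed no other count by over 1.5 times. At day 8 the deviations of same-numbered arrays correlated at -0.199, and the crossed pairing also gave 1. Leaving out 1 array at a time, counts ranged from 6 to 9 for Eed-null at day 0, 0 to 2 at day 6 and 6 to 10 for its day 6 against day 0, 3 to 5 for Ezh2-null at day 6 and 10 to 12 for its day 6 against day 0, 4 to 11 and 4 to 6 for the Eed-null and Ezh2-null interactions, 0 to 1, 7 to 9 and 8 to 10 for wild-type days 2, 6 and 8, 16 to 18 for MEF, 7 to 8 for neuronal stem cells, 4 to 6 for Sox1-GFP, 4 to 5 for T-GFP cells against day 0, 5 to 6 for T-GFP against Sox1-GFP, 4 to 6 for neuronal stem against Sox1-GFP cells, and 12 in every case for MEF against neuronal stem cells. It was 0 throughout for Ezh2-null at days 0, 2 and 8 and Eed-null at day 2, the same limma fits that gave 0 above. The number of arrays, 2 in 7 of the 15 groups, limits what could be called.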
